A study of Mus musculus with 12 samples.

Results

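Voltage-gated sodium channels were examined in the ribosome-associated and total RNA of cultured dorsal root ganglion (DRG) neurons. The members were the 9 sodium channel subunit genes Scn1a, Scn2a1, Scn3a, Scn8a, Scn9a, Scn10a, Scn11a, Scn3b and Scn4b, chosen by name. All 9 are among the 9112 genes listed for the libraries labelled Cre+ and among the 14177 listed for those labelled Cre-, and all 9 passed the filter on low values in both tables. The current symbol of Scn2a1 is Scn2a.

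RiboTag mice carry an epitope-tagged ribosomal protein allele, and all animals here were Rpl22HA/HA. In the samples labelled Runx3-Cre+ a Cre recombinase driven by Runx3, a transcription factor of proprioceptive neurons, switches the tag on in the cells that express it, whereas the samples labelled Cre- lack the recombinase. Each sample pooled neurons of 5 male mice, aged 3 to 6 months by the labels, that had been purified over Percoll from all ganglia and kept for 24 h in serum-containing medium. RNA was sequenced from the anti-HA pull-down and from the input, 10% of the same kind of lysate, with 3 libraries for each label and fraction and 12 in all. Without the recombinase no ribosomes should carry the tag, so by their label the Cre- pull-downs are a control for background. The comparisons ask which transcripts are over-represented in the pull-down relative to the input, and whether that differs between the labels.

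Sodium channels open on depolarisation and carry the rising phase of the action potential. The pore is formed by a single large alpha subunit, and small single-pass beta subunits modify its gating and placement in the membrane. Sensory neurons are known for mixing channels that tetrodotoxin blocks with channels that it leaves open, the latter concentrated in nociceptors, while large myelinated neurons such as proprioceptors rely mainly on the blocked kind.

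Tetrodotoxin sensitivity depends on a single residue in the pore loop of the first domain. The coding sequence around that residue is shown for 6 alpha subunit genes because it sorts them into the classes used for the results, where Scn1a is also counted as tetrodotoxin-sensitive. Capitals mark the codon, every stretch lies within 1 exon, and the bases are given 5′ to 3′ on the coding strand from GRCm38.
Scn2a1: actcaagacTTCtgggaaaacctttat
Scn3a: actcaagacTACtgggagaacctttac
Scn8a: actcaggacTACtgggagaacttatac
Scn9a: actcaggacTACtgggagaacctttat
Scn10a: acgcaggacTCCtgggaacggctgtac
Scn11a: actcaagacTCCtgggagaagctttat
The capitals encode phenylalanine in Scn2a1 and tyrosine in Scn3a, Scn8a and Scn9a, the aromatic residues of tetrodotoxin-sensitive channels. In Scn10a and Scn11a they encode serine, as in tetrodotoxin-resistant channels. The stretch of Scn8a lies at chr15:100971629-100971655 on the plus strand, that of Scn9a at chr2:66548986-66549012 on the minus strand, and that of Scn10a at chr9:119666372-119666398 on the minus strand, each in exon 9 of the transcript used.

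The genes lie in few places of GRCm38, with the starts and ends given here taken from RefSeq. Scn3a (65457118 to 65567591), Scn2a1 (65620764 to 65767447), Scn1a (66270781 to 66440837) and Scn9a (66480080 to 66635114) form a cluster on chromosome 2. Scn10a (119608456 to 119719322) and Scn11a (119753763 to 119825456) are neighbours on chromosome 9, which also holds Scn3b (40269216 to 40291618) and Scn4b (45138624 to 45154155). Scn8a stands alone on chromosome 15 (100869863 to 101045938). Only uniquely mapped reads were counted, so sequence shared between paralogs can lower a count. Of all 50-base windows of their annotated exons, 6.49% in Scn3a and 5.62% in Scn2a1 also occur in another sodium channel gene, against 4.04% in Scn9a, 4.03% in Scn1a, 1.66% in Scn10a, 0.0374% in Scn8a and 0% in Scn11a, Scn3b and Scn4b. Nothing says that strand was used in counting, and 1.41% of the exon bases of Scn9a overlap the antisense gene Gm13629. No other member shares exon bases with another gene.

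Between 8886308 and 18633365 fragments per library fell on the genes listed for its label, and fewer genes are listed for Cre+ than for Cre-. Runx3 was called enriched in the pull-downs labelled Cre- (log2 fold change 3.52, FDR = 0.000236) and not in those labelled Cre+ (1.55, FDR = 0.309), and the column names of the table that the Cre+ samples name also resemble the titles of the Cre- samples. Directions between genotypes therefore refer to the labels as deposited. The 7 proprioceptor markers listed in both tables, of 8 chosen, summed to 1590 to 1670 normalized counts in the Cre- inputs and 4340 to 4790 in the Cre- pull-downs. They summed to 1420 to 1590 in the Cre+ inputs and 2080 to 2840 in the Cre+ pull-downs. Nefh made up most of these sums, with 1110 ± 38.7 (SD, n = 3) in the Cre+ inputs and 1630 ± 287 in the Cre+ pull-downs. In Cre-, 7 of 8 proprioceptor markers were called higher. In Cre+, 6 of 7 had a positive log2 fold change, only Ntrk3 was called, and Spp1 had -0.95. The 6 nociceptor markers in both tables, of 7 chosen, went from 2270 to 2570 in the Cre- inputs to 1210 to 1440 in the Cre- pull-downs, and from 2520 to 2840 in the Cre+ inputs to 1280 to 2660 in the Cre+ pull-downs. The 8 pan-neuronal markers summed to 8320 to 10300 and 16700 to 17500 in Cre- inputs and pull-downs, and to 7830 to 12300 and 5470 to 6760 in Cre+. Snap25 made up most of these sums, with 6860 ± 1240 (SD, n = 3) in the Cre- inputs and 15200 ± 563 in the Cre- pull-downs, and was the only one of the 8 called in Cre-, where 4 of 8 had a positive log2 fold change (median 0.03). In Cre+, 3 of 8 had a positive log2 fold change (median -0.28). Uchl1 (-1.85, FDR = 0.0342) and Tubb3 (-1.19, FDR = 0.0448) were called lower there, and Snap25 (7160 ± 2340 in inputs and 4660 ± 795 in pull-downs) was not called. The 7 glial markers in both tables, of 10 chosen, summed to 3210 to 4590 and 1600 to 1970 in Cre- inputs and pull-downs, and to 3010 to 4170 and 1900 to 2850 in Cre+. Pmp22 made up most of the input sums, with 2870 ± 807 in the Cre- inputs and 859 ± 234 in the Cre- pull-downs. Glul was level in Cre- (442 ± 88.0 and 439 ± 128), and S100b was higher in the Cre- pull-downs (316 ± 43.9 and 500 ± 61.4). No marker of these neuronal lists had a count of 0 in a table that lists it, and Fabp7 and Kcnj10 of the glial list each had 0 in 1 Cre- library. The part of these markers in the channel values was not tested, and in bulk RNA fewer cells of a type and less RNA per cell cannot be told apart.

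Levels are normalized counts, that is counts per 1000000 with library sizes adjusted by TMM over all 12 libraries. To compare genes with each other the level was divided by the length of the longest annotated transcript in kilobases. In the inputs, which sample the whole culture, the nociceptor channel Scn10a had the highest length-scaled level, at 76.9 ± 10.3 (SD, n = 3) in Cre- and 75.8 ± 20.0 in Cre+. Scn9a followed at 63.0 ± 11.5 and 56.5 ± 16.1, and its libraries overlapped those of Scn10a under both labels. Scn11a came after them, at 36.1 ± 8.71 and 37.6 ± 12.0. Scn8a, Scn4b, Scn3b and Scn1a came next in both groups of inputs, and Scn2a1 and Scn3a were last, between 0.726 and 1.74 in every input. The tetrodotoxin-resistant pair, Scn10a and Scn11a, thus made up 50.5 to 58.6% of the summed length-scaled level of the 7 alpha subunits in the 6 inputs.

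The order differed in the pull-downs. In the Cre- pull-downs Scn8a was first at 75.4 ± 3.98, above Scn9a (52.3 ± 6.44) with no overlap between libraries, and Scn10a came after them at 41.1 ± 25.6. Scn1a stood at 25.8 ± 5.16 there, above Scn3b with no overlap, whereas it was below Scn3b with no overlap in both groups of inputs. In the Cre+ pull-downs Scn9a (140 ± 24.1), Scn10a (130 ± 32.7) and Scn8a (94.3 ± 52.3) led, and each of these overlapped its neighbour. Scn2a1 and Scn3a remained last in both pull-downs, at 3.85 ± 1.54 and 2.52 ± 0.735 in Cre+ and 1.97 ± 0.35 and 1.13 ± 0.445 in Cre-.

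**Figure D1:**
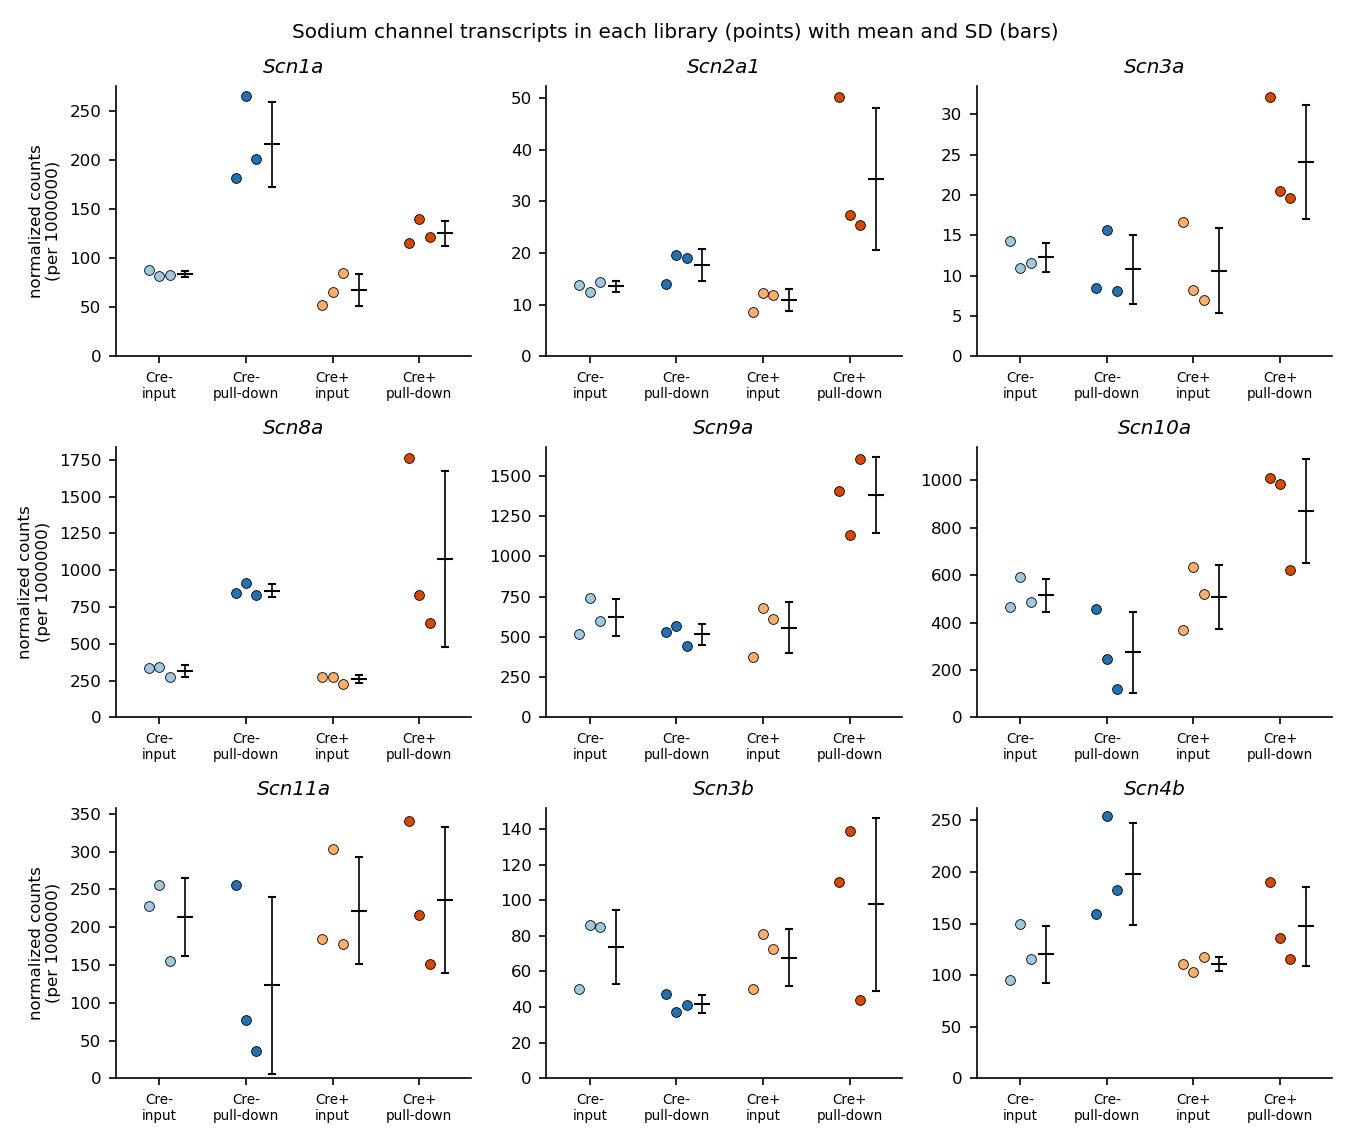
Normalized counts per 1000000 (vertical axes, each starting at 0) of the 9 sodium channel genes in every library (points), with the mean and SD of each group of 3 libraries (bars). Scn8a lies above the inputs in all 6 pull-downs, Scn1a is highest in the Cre- pull-downs, and Scn9a and Scn10a are highest in the Cre+ pull-downs.

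In the pull-downs labelled Cre-, enrichment was called among the members for a pair of tetrodotoxin-sensitive alpha subunits. Scn8a rose 2.78-fold and Scn1a rose 2.62-fold over the input, while the resistant channels Scn10a and Scn11a had lower means in the pull-down and did not pass the test. Calls required an FDR under 0.1 with at least a 2-fold change. They were made for 2 of 9 members, against 11.8% of the 11526 genes tested (6.01% called higher and 5.83% lower). The median log2 fold change of the members was -0.16, and that of all genes tested was -0.04. With a per-library trend on transcript length taken out, they were -0.69 and -0.004.

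Scn8a encodes the channel of nodes of Ranvier and axon initial segments. Its level was 332, 344 and 271 normalized counts in the Cre- inputs and 843, 914 and 829 in the Cre- pull-downs. Every pull-down lay above every input and the pull-downs were close together. Pull-down over input gave 1.47 on the log2 scale (edgeR's quasi-likelihood test, standard error 0.15, FDR = 7.41e-05).

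Scn1a encodes a channel of fast-firing neurons, including large sensory neurons. It stood at 87.5, 81.8 and 82.5 in the Cre- inputs and at 182, 265 and 201 in the Cre- pull-downs, again without overlap. Pull-down exceeded input by 1.39 on the log2 scale (standard error 0.18, FDR = 0.000319).

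The beta subunits differed from the input in opposite directions, both by less than the fold limit. Scn4b, a disulfide-linked beta subunit associated with resurgent current, had 95.3, 150 and 115 in the Cre- inputs and 159, 254 and 182 in the Cre- pull-downs. All pull-downs exceeded all inputs, and the difference of 0.75 on the log2 scale (standard error 0.22, FDR = 0.0341) passed the FDR limit without reaching 2-fold. Scn3b, a non-covalently bound beta subunit, had 49.9, 86.2 and 85.2 in the Cre- inputs and 47.3, 37.0 and 41.0 in the Cre- pull-downs. All its pull-downs lay below all inputs, at -0.80 on the log2 scale (standard error 0.24, FDR = 0.0366). In all, 3 of 9 members had every Cre- pull-down above every input (18.2% of all genes tested) and 1 of 9 had every pull-down below (18.6%).

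The tetrodotoxin-resistant channels varied most among the Cre- pull-downs. Scn10a, which carries most of the action potential upstroke in nociceptors, had 464, 593 and 487 in the Cre- inputs and 458, 248 and 119 in the Cre- pull-downs. The first pull-down was close to the lowest input, and the groups overlapped once the 6 Cre- libraries were scaled on their own. The difference of -0.88 on the log2 scale had a 95% interval of -1.96 to 0.20 and did not pass (FDR = 0.242). Going by number, each pull-down was below the input of the same number. Scn11a, whose persistent current sets resting excitability, had 228, 255 and 156 in the inputs and 256, 76.6 and 35.9 in the pull-downs. The first pull-down exceeded every input and the others were below, so the log2 fold change of -0.77 had an interval of -2.58 to 1.04 (FDR = 0.536). A fit with the replicate number as a block called both lower, Scn10a at -1.08 (FDR = 0.0437) and Scn11a at -1.22 (FDR = 0.0554), although the labels do not say that a number marks a shared lysate. Without the first pull-down, both genes were called lower, Scn10a at -1.44 (FDR = 0.00155) and Scn11a at -1.87 (FDR = 0.000707). The same pull-down also stood apart in markers of other cells. The 4 fibroblast markers in both tables summed to 81.2 there and to 26.7 and 24.3 in the other Cre- pull-downs, and the 4 endothelial markers to 137 against 19.8 and 23.7. Their part in the values of Scn10a and Scn11a was not tested.

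The remaining tetrodotoxin-sensitive channels did not pass in Cre-. Scn9a, whose loss in humans removes the sense of pain, had 519, 742 and 599 in the inputs and 529, 570 and 445.5 in the pull-downs. The groups overlapped, and the log2 fold change was -0.24 (95% interval -0.61 to 0.12, FDR = 0.358). Scn2a1, which serves unmyelinated and immature axons, had 13.7, 12.4 and 14.5 in the inputs and 14.0, 19.7 and 19.1 in the pull-downs (log2 fold change 0.41, FDR = 0.36). Scn3a, largely an embryonic channel that reappears in sensory neurons after nerve injury, had 14.3, 10.9 and 11.6 in the inputs and 8.50, 15.7 and 8.16 in the pull-downs (log2 fold change -0.16, FDR = 0.796). Both were low and their pull-downs overlapped the inputs.

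In the libraries labelled Cre+, Scn8a rose 4.15-fold and Scn9a rose 2.47-fold over the input. All 9 members had a positive log2 fold change, from 0.09 for Scn11a to 2.05 for Scn8a, with a median of 0.89 against 0.08 for all genes tested. With a per-library trend on transcript length taken out, these medians were 0.22 and 0.15. The 2 of 9 members called compare with 6.91% of the 8947 genes tested (4.72% called higher and 2.19% lower). All 3 pull-downs lay above all inputs for 5 of 9 members, Scn1a, Scn2a1, Scn3a, Scn8a and Scn9a, against 15.5% of all genes tested, and for none did they lie below (17.9%). These are the 5 tetrodotoxin-sensitive alpha subunits, and also the 5 members with transcripts of 8 kb and over, a length class whose median over all genes tested was 1.20 in Cre+.

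Scn8a had 276, 276 and 229.5 normalized counts in the Cre+ inputs and 1761, 830 and 644.5 in the Cre+ pull-downs. The first pull-down was far above the other two, and all were above the inputs (log2 fold change 2.05, standard error 0.38, FDR = 0.0371). The sums of endothelial and of macrophage markers were also highest in that pull-down. The endothelial marker Cdh5 was lowest there (62.5, against 63.3 and 72.9). The sum of the 7 glial markers was lowest there (1900, against 2070 and 2850 in the other Cre+ pull-downs). Pmp22 made up most of it, while Sox10 (106, 50.5 and 10.0) and S100b (215, 157 and 129) were highest there. The 4 fibroblast markers summed to 78.3, 78.7 and 70.0, but Col1a1 and Col1a2 were highest and Dcn and Pdgfra lowest in that pull-down. The 4 endothelial markers summed to 528 there, to 122 and 152 in the other Cre+ pull-downs and to 51.7 to 98.1 in the Cre+ inputs. All 4 had a positive log2 fold change in Cre+ (median 1.93), and Flt1 was called (2.83, FDR = 0.0951). The 2 macrophage markers in both tables, of 6 chosen, summed to 115 there, to 17.8 and 5.08 in the other Cre+ pull-downs and to at most 70.8 in the Cre+ inputs. Without that pull-down Scn8a stayed called at 1.52 (FDR = 0.0136) and Scn9a at 1.32 (FDR = 0.034).

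Scn9a had 377, 679 and 612 in the Cre+ inputs and 1407, 1130 and 1602 in the Cre+ pull-downs, with a wide gap between the groups (log2 fold change 1.31, standard error 0.29, FDR = 0.054). Leaving out any 1 of the Cre+ inputs left no member called, with an FDR of 0.115 to 0.186 for Scn8a and 0.125 to 0.186 for Scn9a, although their log2 fold changes stayed between 1.97 and 2.10 and between 1.09 and 1.47. Without the third Cre+ pull-down, Scn8a was called and Scn9a was not (1.21, FDR = 0.102), and the same held under scaling by library size alone (Scn9a 0.85, FDR = 0.117).

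Scn2a1, Scn3a and Scn1a had higher values in the Cre+ pull-downs that did not pass the test. Scn2a1 had 8.52, 12.2 and 12.0 in the inputs and 50.3, 27.4 and 25.4 in the pull-downs (log2 fold change 1.66, 95% interval 0.34 to 2.98, FDR = 0.138). Scn3a had 16.7, 8.22 and 6.94 against 32.2, 20.5 and 19.6 (1.18, interval -0.25 to 2.61, FDR = 0.293). Scn1a had 51.9, 65.4 and 84.5 against 116, 140 and 121 (0.89, interval 0.12 to 1.67, FDR = 0.163). In each of these 3 genes the lowest pull-down was above the highest input.

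Scn10a had 367, 634 and 519.5 in the Cre+ inputs and 1012, 985 and 620 in the Cre+ pull-downs (log2 fold change 0.78, FDR = 0.162). The third pull-down fell inside the range of the inputs, so the groups overlapped. Scn11a had 184, 303.5 and 178 in the inputs and 341, 215 and 151 in the pull-downs, around the same level (0.09, 95% interval -0.75 to 0.92, FDR = 0.91). Its sign turned negative under upper-quartile scaling (-0.14), under scaling by library size alone (-0.38) and with the length trend taken out (-0.35). Scn3b had 50.02, 81.0 and 72.4 in the inputs and 110, 139 and 43.8 in the pull-downs (0.52, FDR = 0.527), and Scn4b had 111, 103 and 118 against 190, 136 and 116 (0.41, FDR = 0.464). The third pull-down was the lowest of its group for all 4 of these genes.

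**Figure D2:**
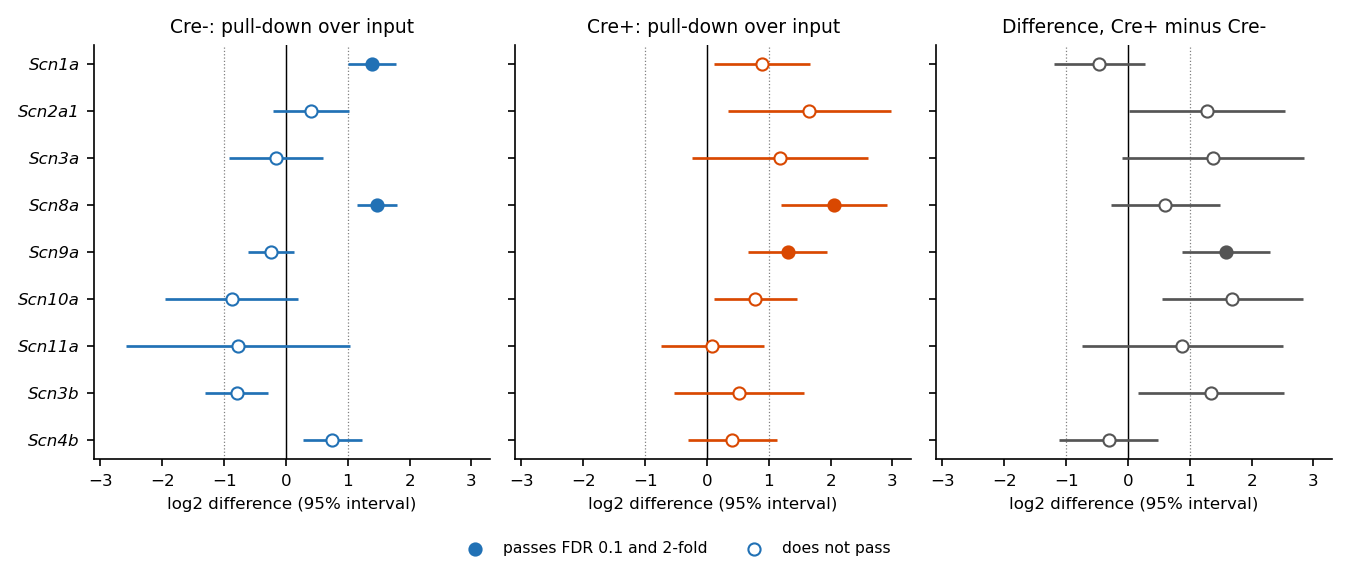
Log2 fold change of pull-down over input for each gene in Cre- (left) and Cre+ (middle) and the difference of both enrichments (right), with 95% intervals from edgeR, dotted lines at a 2-fold change, and filled points for genes passing FDR 0.1 and 2-fold. Scn8a passes under both labels, Scn1a in Cre-, Scn9a in Cre+ and in the difference.

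The balance of resistant and sensitive channels summarises these values per library. The resistant pair made up 53.1, 52.8 and 50.5% of the summed length-scaled alpha subunit level in the Cre- inputs and 42.4, 22.4 and 14.1% in the Cre- pull-downs. In the Cre+ inputs it made up 54.7, 58.6 and 53.3%, and in the Cre+ pull-downs 39.5, 46.8 and 33.1%. Every pull-down was below every input. The resistant pair also has the shortest alpha transcripts (6692 and 5899 bases, against 8386 to 11436), and enrichment followed transcript length across all genes, as given below. The part of length in this share was not tested. With 3 libraries a group, an exact permutation test of such a share cannot go below p = 0.10, and none was made. Scn8a took 28.0, 35.8 and 43.0% in the Cre- pull-downs against 12.1 to 14.3% in the Cre- inputs, and 29.1, 18.5 and 15.8% in the Cre+ pull-downs against 9.67 to 15.3% in the Cre+ inputs. Scn9a took 20.4 to 26.9% in the Cre- pull-downs, below or within the 26.0 to 31.0% of the Cre- inputs, and 45.6% in the third Cre+ pull-down. The other Cre+ pull-downs lay within the 24.4 to 30.8% of the Cre+ inputs.

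**Figure D3:**
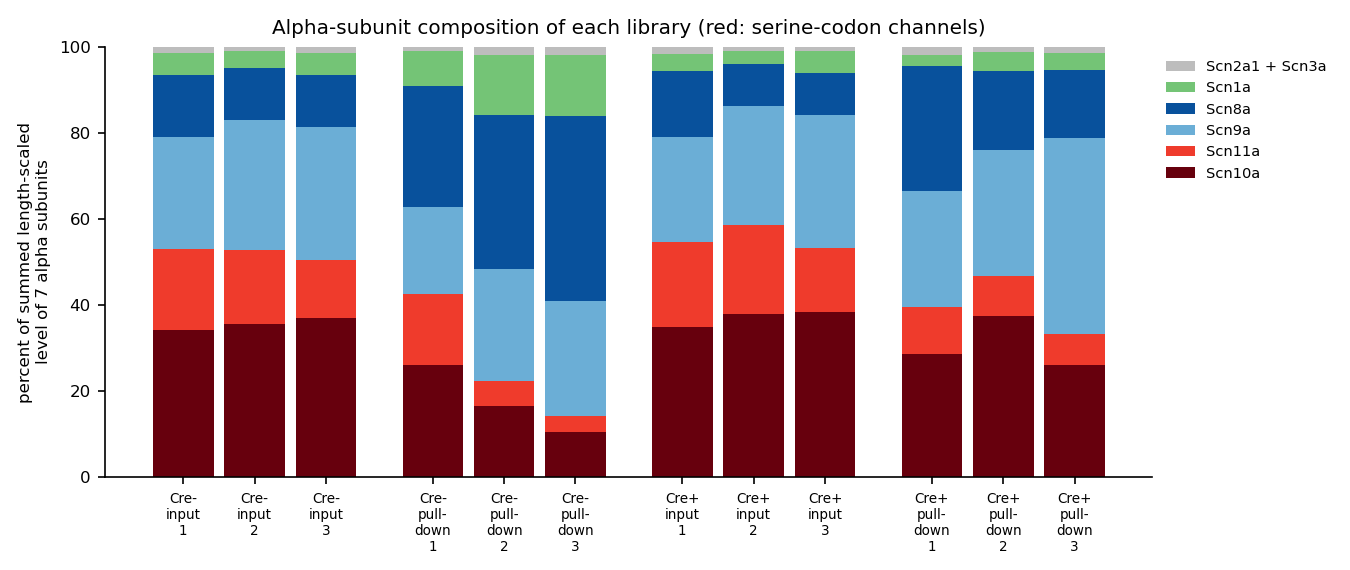
Percent of the summed length-scaled level of the 7 alpha subunits taken by each gene (stacked bars) in each of the 12 libraries, with the tetrodotoxin-resistant Scn10a and Scn11a in red. The red share is 50.5 to 58.6% in the inputs, 14.1 to 42.4% in the Cre- pull-downs and 33.1 to 46.8% in the Cre+ pull-downs.

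The difference of both enrichments was tested as an interaction in a fit of all 12 libraries. Scn9a was the only one of the 9 members called, with an enrichment higher in Cre+ than in Cre- by 1.58 on the log2 scale (standard error 0.33, 95% interval 0.87 to 2.29, FDR = 0.0365). Of the 9006 genes tested, 4.3% were called (2.3% higher and 2% lower in Cre+). The call was lost without the second Cre- input, the third Cre- input or the third Cre- pull-down (FDR = 0.14, 0.107 and 0.141), where the difference was 1.43, 1.60 and 1.49. Scn10a had a difference of similar size, 1.69 (standard error 0.53, interval 0.54 to 2.83), which did not pass (FDR = 0.117). The differences of Scn3a (1.37, FDR = 0.289), Scn3b (1.35, FDR = 0.207), Scn2a1 (1.28, FDR = 0.251), Scn11a (0.88, FDR = 0.541) and Scn8a (0.60, FDR = 0.439) were positive and did not pass. Those of Scn1a (-0.46, interval -1.20 to 0.27, FDR = 0.476) and Scn4b (-0.31, interval -1.11 to 0.48, FDR = 0.672) were negative and did not pass either. The enrichment of Scn8a was therefore called under both labels and was not shown to differ between them, with an interval of the difference from -0.28 to 1.48. Without the first Cre+ pull-down its difference was 0.05 (FDR = 0.917), and that of Scn9a was 1.57 (FDR = 0.0164).

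Pull-downs of both labels were also compared directly, which shares the Cre- and Cre+ pull-down libraries with the comparisons above. The nociceptor channels Scn9a and Scn10a and the beta subunit Scn3b were higher in the Cre+ pull-downs, 3 of 9 members against 17.9% of all genes tested (10.8% called higher and 7.12% lower). Scn9a was higher by 1.42 on the log2 scale (standard error 0.24, FDR = 0.00367), Scn10a by 1.67 (standard error 0.38, FDR = 0.0157) and Scn3b by 1.22 (standard error 0.39, FDR = 0.0531). The libraries of Scn3b overlapped, since the third Cre+ pull-down at 43.8 was below the first Cre- pull-down at 47.3. Its call was lost without the second Cre+ pull-down (0.88, FDR = 0.126), the second Cre- pull-down (1.14, FDR = 0.163) or the third Cre- pull-down (1.21, FDR = 0.155). Scn1a was lower in all Cre+ pull-downs than in all Cre- pull-downs (-0.78, standard error 0.24, FDR = 0.0464) by less than 2-fold. Scn2a1, Scn3a, Scn9a and Scn10a were higher in all Cre+ than in all Cre- pull-downs, 4 of 9 members against 13.5% of all genes, and 1 of 9 was lower in all, against 15%. With only the 6 pull-downs in the fit, Scn9a was the only member called (1.40, FDR = 0.0315), and Scn10a (FDR = 0.117) and Scn3b (FDR = 0.214) were not.

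No such differences were called between the inputs. No member was called between Cre+ and Cre- inputs by edgeR, and 0% of all genes were, with 20 of 9006 genes at an unadjusted p under 0.05. DESeq2 called none as well, with 30 genes at an unadjusted p under 0.05. Both counts are far below what no difference at all would give at that limit. These p-values were thus conservative, and the lack of calls does not show that the inputs were alike. The log2 differences of the members lay between -0.32 (Scn1a) and 0.06 (Scn11a). Scn2a1 alone had every Cre+ input below every Cre- input, 1 of 9 members against 3.98% of all genes tested, and no member had every Cre+ input above (3.82%).

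Enrichment followed transcript length across all genes, and the sodium channel transcripts are long. Their longest annotated transcripts run from 4150 bases (Scn3b) to 11436 bases (Scn8a). In Cre+ the median log2 fold change went from -1.35 for the 218 genes under 1 kb to 1.20 for the 711 genes of 8 kb and over. In Cre- it went from -0.61 for 505 genes to 0.51 for 729 genes. Against the medians of their length classes, in Cre+ Scn9a was 0.11, Scn10a 0.06, Scn2a1 0.46 and Scn8a 0.86 above, and Scn3a was 0.02 and Scn1a 0.30 below. Scn3b was 0.24 and Scn4b 0.12 above, and Scn11a was 0.19 below. In Cre-, Scn8a was 0.97, Scn1a 0.88 and Scn4b 0.69 above. Scn10a was 1.15, Scn3b 0.86, Scn11a 0.83, Scn9a 0.75, Scn3a 0.67 and Scn2a1 0.10 below.

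When a per-library trend on transcript length was taken out, no gene was called in Cre+ (0 of all tested by edgeR, with 1310 at an unadjusted p under 0.05). Scn8a then had a log2 fold change of 0.66 (FDR = 0.399) and Scn9a of 0.27 (FDR = 0.532). In Cre-, Scn8a at 0.83 (FDR = 0.00412) and Scn1a at 0.97 (FDR = 0.00481) kept an FDR below 0.1 and fell short of 2-fold. The difference of Scn9a stayed called at 1.05 (FDR = 0.0442). Between the pull-downs, Scn10a and Scn3b stayed called, Scn1a was called lower in Cre+ at -1.15 (FDR = 0.00873), and Scn9a at 0.96 (FDR = 0.00397) was just under 2-fold.

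**Figure D4:**
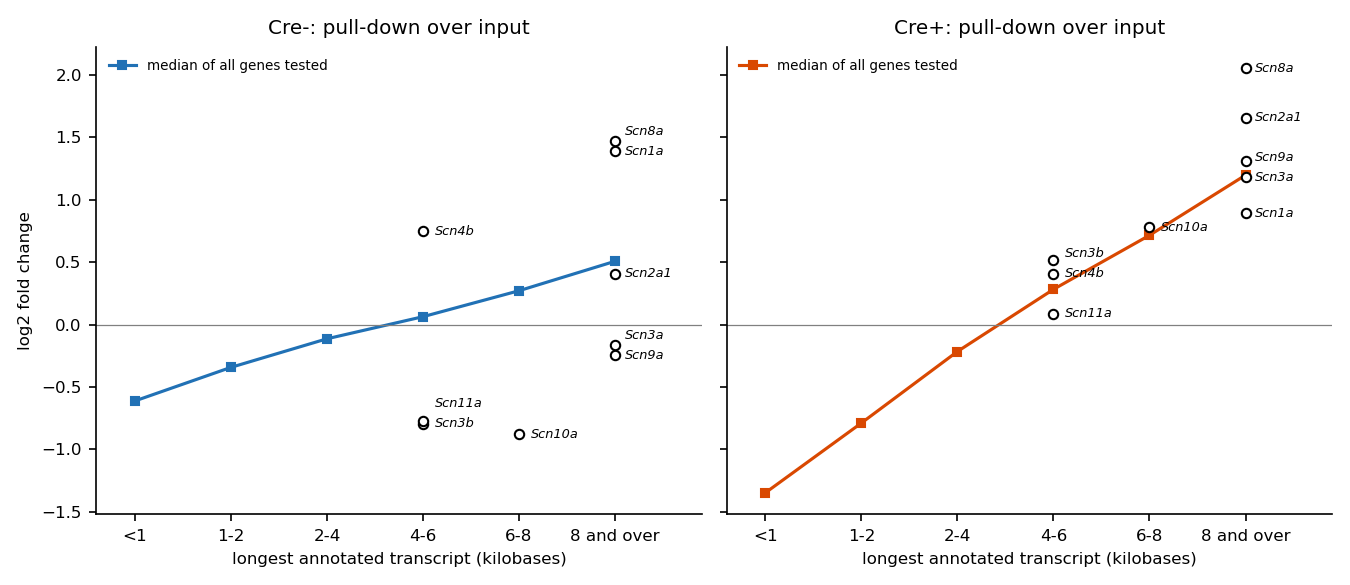
Log2 fold change of pull-down over input (vertical axis) against the length class of the longest annotated transcript in kilobases, with the median of all genes tested in each class (line) and the 9 sodium channel genes (open circles), for Cre- (left) and Cre+ (right). The line rises from -0.61 to 0.51 in Cre- and from -1.35 to 1.20 in Cre+, where Scn8a lies 0.86 above it and Scn1a 0.30 below.

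Scn2b and Scn7a were looked at beside the members. Scn2b, a beta subunit that links covalently to alpha subunits, was called lower in the Cre- pull-down with a log2 difference of -1.92 (standard error 0.38, FDR = 0.00726). It had 56.1, 114 and 87.9 in the Cre- inputs and 16.8, 35.9 and 14.4 in the Cre- pull-downs. In Cre+ its log2 fold change was -0.22 (FDR = 0.885), with 11.6, 129 and 39.5 in the pull-downs. Its enrichment differed between the labels by 1.74, which did not pass (FDR = 0.31). Scn7a, a channel-like sodium sensor, differed little between pull-down and input in Cre+ (0.07, 95% interval -0.56 to 0.70) and in Cre- (-0.07, interval -0.42 to 0.29).

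Proteins that bind or place sodium channels were examined as a list of 15 genes. In Cre+, 2 of 13 tested rose and 2 fell (4.72% and 2.19% of all genes tested), with a median log2 fold change of -0.08 against 0.08 for all genes. Ank3, the ankyrin that clusters channels at initial segments and nodes, rose by 2.03 (FDR = 0.0401) and the nodal adhesion molecule Nfasc rose by 1.08 (FDR = 0.0664). S100a10, which aids the surface delivery of the Scn10a channel, changed by -1.91 (FDR = 0.042), and the calmodulin gene Calm2 by -1.73 (FDR = 0.0422). In Cre-, 4 of 14 tested rose and none fell (6.01% and 5.83% of all genes tested), with a median of 0.09 against -0.04. Those were Nfasc (1.67, FDR = 4.65e-05), the spectrin gene Sptbn4 (1.46, FDR = 0.00995), the intracellular channel-binding factor Fgf11 (1.53, FDR = 0.0058) and Pdzd2 (1.66, FDR = 0.0316). Ank3 had 0.57 in Cre- (FDR = 0.0286), under 2-fold, and its enrichment differed between the labels by 1.49 (FDR = 0.0979). That of Calm2 differed in the other direction, by -1.65 (FDR = 0.0701), and these were the only genes called for the difference among 14 of the list tested (2.3% higher and 2% lower of all genes tested).

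The sodium pump, which restores the gradient that the channels use, was examined as a list of 8 genes. In Cre-, 3 of 6 tested fell, against 5.83% of all genes tested. Fxyd2 (-2.44, FDR = 0.0036), Atp1b3 (-1.20, FDR = 0.00666) and Fxyd7 (-1.03, FDR = 0.0415), which encode regulatory and beta subunits, were lower. In Cre+, 0 of 5 tested rose and 1 fell, Atp1b3 at -1.29 (FDR = 0.0963), against 4.72% and 2.19% of all genes tested. The enrichment of Atp1b1 differed between the labels by -1.19 (FDR = 0.0223), lower in Cre+, the opposite sign to Scn9a.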

How the data were processed

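RNA of 12 libraries was analysed, 3 pull-downs and 3 inputs for each genotype label. The authors aligned reads to mm10 with STAR and deposited counts of uniquely mapped fragments per refSeq gene, made with HTSeq. The deposited tables also give a mean FPKM computed by the authors, used here only as a filter (above 1). The submitters' processing notes name CASAVA 1.8.2 and edgeR. The authors' fold changes, p-values and FDR, and 18 further per-sample columns of normalized counts and ratios, were not used. Columns of the Cre+ libraries were assigned as groups, because the samples' descriptions name that table while the column names also resemble titles of Cre- samples, so their numbers only name libraries.

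edgeR 4.0.16 in R 4.3.3 (TMM, glmQLFit and glmQLFTest with robust estimation) tested each genotype on its 6 libraries (8947 and 11526 genes) and the differences between labels in 1 fit of 12 (9006 genes), with no replicate block. Genes were called at FDR (Benjamini-Hochberg over all genes tested) below 0.1 and a 2-fold change, the limits of the study. The standard error is the log2 fold change divided by the square root of F. Reads carry no molecular identifiers, and p-values measure the spread between samples of 5 pooled mice each, which may be partly technical. Exons, transcript lengths and bases came from GENCODE M21 (GRCm38), and the start and end of each gene came from RefSeq. Of the genes tested, 99.4 to 99.5% had a length. The scripts were tested on simulated data. Members and lists were chosen with earlier results of these data known. Some genes of these lists, and the sequence of 1 member, are not reported here. All members are named, other list genes when called or as examples, and the 5 genes most like the members. Alternatives were DESeq2 1.42.0, edgeR's exact test, 2 other filters, 2 other scalings, a length offset, a replicate block, other samples in the fit, other limits and leaving out each library. Figures were drawn with matplotlib 3.10.9.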

Additional observations from a re-analysis of the deposited data

Results flagged for a closer look

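The enrichment of Scn9a in the pull-down over the input differed between the genotype labels by 1.58 on the log2 scale (edgeR interaction test, FDR = 0.0365), which is what brought it here. All 3 Cre+ pull-downs were above all Cre+ inputs, while the Cre- pull-downs overlapped the Cre- inputs. Groups of 3 libraries are too small for a test of single outlying samples, and none was made.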

How the results depend on the processing

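With 3 libraries a group, single libraries changed several calls, and the low channels Scn2a1 and Scn3a rest on 94 to 442 counts per library. The cause of a change with a setting was not tested. Scaling by library size alone moved the median log2 fold change of all genes from 0.08 to -0.36 in Cre+ and from -0.04 to -0.27 in Cre-. Under that scaling 21.5% of all calls in Cre+ and 25.7% in Cre- were higher in the pull-down, against 68.3% and 50.8%, with 48.3% in Cre+ under upper-quartile scaling. For the difference of enrichment the share was 53.5%, against 28.5% under upper-quartile scaling and 20.1% by library size alone, and between pull-downs 60.2%, 41.9% and 35.7%.

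Of members called in Cre+ (2), library size alone left 1, an FDR of 0.05 left 1, the length offset left 0, and all 12 libraries in one fit gave 4 (also Scn2a1 and Scn3a). DESeq2 and edgeR's exact test called 3 in Cre+, Scn2a1 being the addition. In Cre- (2), the length offset left 0, library size alone gave 3 (also Scn3b, lower), and no fold limit gave 4 (also Scn3b and Scn4b). For the difference (1), DESeq2 gave 2 (also Scn10a). Between pull-downs (3), DESeq2 gave 5 (also Scn2a1 and Scn3a) and a fit of only those 6 libraries gave 1, an alternative chosen after seeing the data, as was edgeR without robust estimation, which left all counts of members called as they were. Between inputs no setting called a member.

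Leaving out single libraries gave 0 to 2 members called in Cre+, 2 to 4 in Cre-, 0 to 3 for the difference and 2 to 5 between pull-downs. The fits pooled the spread over groups. Without the first Cre- input, Scn3b was called lower in Cre- (-1.01, FDR = 0.00972). For the difference, Scn10a was called without the first Cre+ pull-down (1.57), the third Cre+ pull-down (1.88) or the first Cre- pull-down (2.26), Scn3b without the third Cre+ pull-down (1.70) and Scn11a without the first Cre- pull-down (1.99). Between pull-downs, Scn2a1 and Scn3a were called without the second Cre+ pull-down (1.10 and 1.26) or the third (1.14 and 1.29), and Scn11a without the first Cre- pull-down (2.05).

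Direction turned in few cases, each for a value that did not pass. In Cre+, Scn11a was -0.14 under upper-quartile scaling, -0.38 by library size alone, -0.35 with the length offset and -0.26 to 0.38 without single libraries, Scn4b was -0.05 by library size alone, and Scn3a was -0.02 with the length offset. In Cre-, Scn2a1 was -0.06 with the length offset and Scn3a was -0.54 to 0.02 without single libraries. For Scn8a the length offset gave -0.15 for the difference and -0.28 between pull-downs, where leaving out single libraries gave -0.23 (without the first Cre+ pull-down) to 0.59. Between inputs the length offset gave 0.01 for Scn3a and 0.04 for Scn10a, and leaving out single libraries gave -0.70 to 0.02 for Scn3a, -0.33 to 0.06 for Scn9a, -0.21 to 0.16 for Scn10a, -0.24 to 0.21 for Scn11a, -0.34 to 0.06 for Scn3b and -0.26 to 0.07 for Scn4b.

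The replicate block could be fitted in Cre-, where columns carry the sample number. It called 4 members, Scn8a and Scn1a higher and Scn10a (-1.08, FDR = 0.0437) and Scn11a (-1.22, FDR = 0.0554) lower. Deviations of same-numbered pull-downs and inputs correlated across genes with r of 0.067, 0.028 and 0.124, each highest for its own number, and the labels do not say that a number marks a shared lysate. No paired fit was made in Cre+ or between labels, because the numbers of the Cre+ columns could not be tied to samples. By column number, the same correlation in Cre+ had r of -0.012, -0.003 and 0.009, and no number was highest for its own partner.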

Other observations

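Across the 12 libraries, which span 4 groups, the genes whose log2 normalized counts followed the mean standardised profile of the 9 members most closely, among 8997 other genes tested, were Tcof1 (Pearson r = 0.962), Ice1 (0.961), Spen (0.961), Trak1 (0.958) and Brwd3 (0.952). These values describe the libraries, which share depth and preparation within groups, and carry no test. Among the members themselves, Scn2a1 followed that mean profile most closely (0.898) and Scn1a least (0.344).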
